A study of Mus musculus with 8 samples.

Results

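Striatal medium spiny neuron genes were followed in ventral pallidum (VP) RNA as a group of 8 named genes: Adora2a, Gpr6, Tac1, Ppp1r1b, Rasd2, Rasgrp2, Bcl11b and Actn2. They were chosen by gene symbol, all 8 had an entry among the 14353 genes of the table, and all 8 were among the 14249 genes tested. The VP is a basal forebrain nucleus that borders the nucleus accumbens, the ventral part of the striatum. Mice homozygous for VGluT2-Cre and heterozygous for the RiboTag Rpl22 allele carry an HA-tagged ribosomal protein in cells that express Cre from the vGluT2 (Slc17a6) gene, so that ribosomes of glutamatergic neurons can be pulled down. TRAP (translating ribosome affinity purification) libraries hold the mRNA pulled down with the tag, and INPUT libraries are labelled as the RNA before the pulldown, although the methods of the study name the unbound fraction where they describe sequencing. Both fractions came from the same 4 untreated pools of dissected tissue (named VP1.6, VP2.2, VP2.11 and VP2.6), with 1 library of each fraction per pool. The pools held 7 to 11 mice each, 38 in all (15 male and 23 female), aged 9 to 12 weeks in VP1.6 and 10 to 16 weeks in the other pools. All groups carried the same alleles, there was no Cre-negative pulldown among these libraries, and the dissected slab could include neighbouring striatum.

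Medium spiny neurons are the GABAergic projection neurons of the striatum and do not use vGluT2 to load their vesicles. Those of the direct pathway express the D1 dopamine receptor and substance P, and those of the indirect pathway express the D2 dopamine receptor, an adenosine receptor and enkephalin. Both kinds project to the VP or pass close to it, and both contain high amounts of DARPP-32, which links dopamine and cAMP signalling to protein phosphatase 1. The comparison of TRAP with INPUT asks how much mRNA of these neurons remained in the ribosome pulldown.

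The deposited levels are log2 CPM (read counts scaled to library size), and they have a property that decides how they can be read. In 14351 of 14353 genes, the TRAP and INPUT values of all 4 pools lay on either side of 1 common value, and the largest miss among the others was 0.014 on the log2 scale. This is the pattern left when a pool term is subtracted from each gene, a step that the sources used here do not state. A level in 1 library is therefore called pool-adjusted below, and its spread among libraries of a fraction does not measure the spread among pools. The difference between TRAP and INPUT within a pool is not altered by such a subtraction, and these 4 differences were used as the replicates. Tests are from limma with the pool as a term (the pool-term fit), with Benjamini-Hochberg adjusted p-values over all 14249 genes. The fit first planned had no pool term and treats the 8 libraries as independent. Its standard errors were smaller, by a median factor of 1.38 over genes, and its adjusted p is given only where the call differs.

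TRAP held less mRNA of these genes than INPUT in 31 of the 32 comparisons of a gene within a pool, the exception being Bcl11b in VP2.2. In the pool-term fit, 6 of the 8 genes were lower in TRAP at an adjusted p under 0.05, against 16.8% of all genes tested. The 6 were Adora2a, Tac1, Rasd2, Ppp1r1b, Actn2 and Gpr6, whose TRAP levels were 23.8% to 43.3% of INPUT. Rasgrp2 and Bcl11b did not pass, at 78.6% and 69.3% of INPUT. The fit without the pool term called all 8 genes lower, against 24.8% of all genes. Of the 8 genes, 7 were below INPUT in all 4 pools, against 24.4% of all genes. On the log2 scale the 8 genes had a median change of -1.31, beside -0.05 for all genes tested. In bulk RNA, fewer ribosomes of a cell type in the pulldown and less of these mRNAs on the ribosomes pulled down cannot be told apart.

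**Figure D1:**
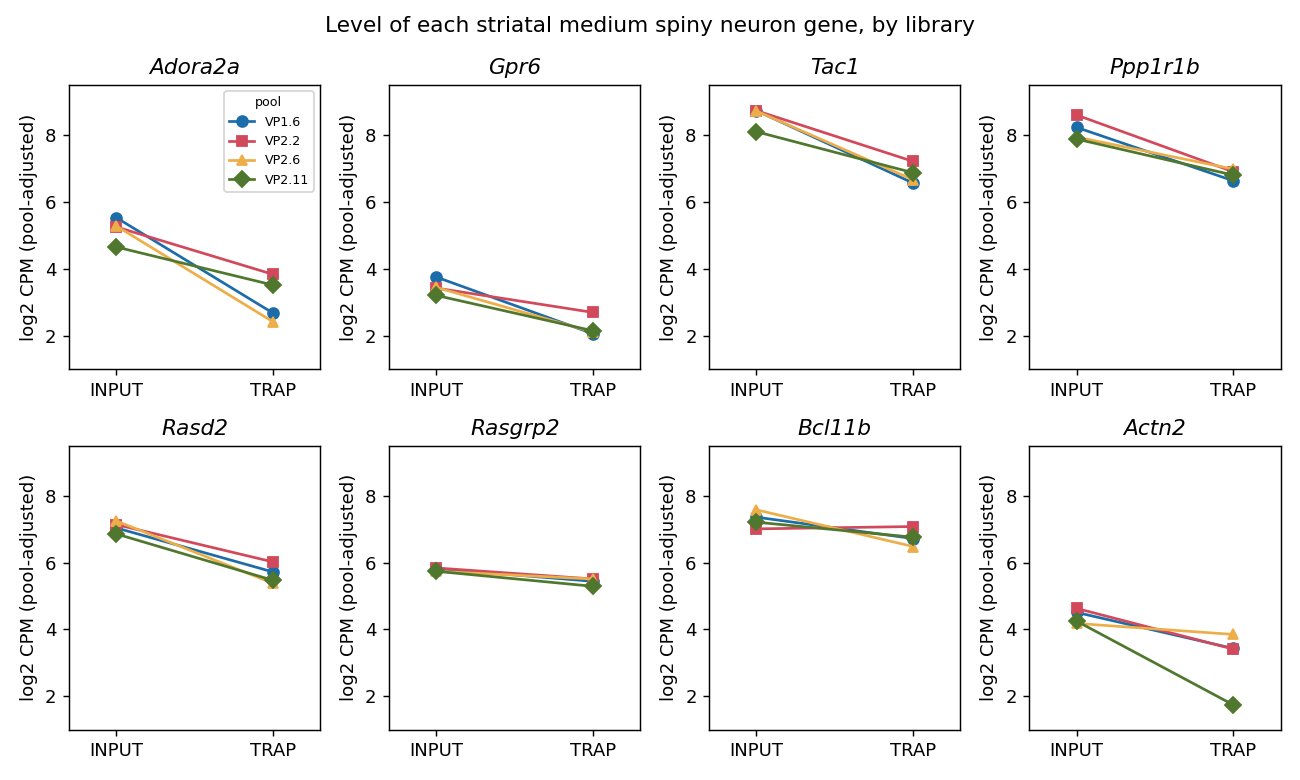
Pool-adjusted level of each gene (log2 CPM, vertical axis) in INPUT and TRAP, with 1 line for each of the 4 pools. The lines fall from INPUT to TRAP in every pool for 7 genes, and the Bcl11b line of VP2.2 is close to flat, at 7.01 in INPUT and 7.08 in TRAP.

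The receptors of the list, Adora2a and Gpr6, are both typical of indirect pathway neurons. Adora2a encodes the striatal adenosine receptor that couples to Golf, which raises cAMP in these cells, and lies at chr10:75316877-75334784 on the plus strand (GRCm38). Its pool-adjusted TRAP levels were 6.35 CPM in VP1.6, 14.2 in VP2.2, 5.33 in VP2.6 and 11.4 in VP2.11, against 46.2, 38.0, 38.9 and 25.1 CPM in INPUT. TRAP was the lower fraction in each pool, and the gap was widest in VP1.6 and VP2.6. The within-pool differences in log2 CPM were -2.86, -1.42, -2.87 and -1.14. Their mean of -2.07 (SE 0.32, n = 4 pools, adjusted p = 3.7e-04) was the largest fall among the 8 genes, and 4.79% of all genes tested had a lower log2 fold change.

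Gpr6 encodes an orphan receptor coupled to cAMP production, has a single annotated transcript, and lies at chr10:41069977-41072285 on the minus strand. It was among the least abundant of the 8 genes. Its pool-adjusted levels were 4.15, 6.47, 4.29 and 4.41 CPM in TRAP and 13.5, 10.7, 10.9 and 9.19 CPM in INPUT, in the same pool order. TRAP was lower in all 4 pools, least so in VP2.2, where it was 60.4% of INPUT. The mean log2 difference was -1.21 (SE 0.32, n = 4, adjusted p = 0.011). Gpr6 no longer passed with VP1.6 left out (-1.04, adjusted p = 0.075) or with VP2.6 left out (-1.16, adjusted p = 0.051).

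As the list turns on cAMP signalling, the bases before the RefSeq start sites (GRCm38.p6) of the 8 genes were searched for TGACG, the core of a cAMP response element, on both strands. Gpr6 and Tac1 are shown because they held matches. The part of each 250-base window outside the annotated gene is printed 5′ to 3′ on the strand of the gene, with each match in capitals. The Gpr6 window is chr10:41072291-41072540 (minus strand) and the Tac1 stretch is chr6:7554811-7554878 (plus strand).
Gpr6: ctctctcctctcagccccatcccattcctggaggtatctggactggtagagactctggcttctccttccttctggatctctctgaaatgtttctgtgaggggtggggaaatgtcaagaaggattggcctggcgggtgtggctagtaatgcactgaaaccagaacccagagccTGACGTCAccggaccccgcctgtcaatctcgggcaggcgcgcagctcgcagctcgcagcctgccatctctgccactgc
Tac1: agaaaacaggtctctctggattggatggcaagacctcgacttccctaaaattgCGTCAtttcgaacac
In Gpr6 the 2 overlapping matches, 1 on each strand, began at positions -78 and -75 from the start site and together spelled the full palindromic element. Tac1 had 2 matches on the reverse strand, at positions -197 and -43, the nearer one inside the annotated gene and not printed. RefSeq windows were found for 6 of the 8 genes, and 2 of their 7 windows held TGACG, against 17.8% of all 32851 windows. TATAAA was in none of the 7 (12.4% of all windows) and GGGCGG in 4 (32.7%), both searched on both strands. These matches are letters in a window and were not tied to any measurement here.

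Tac1 encodes the precursor of substance P and neurokinin A, the peptide co-transmitters of direct pathway neurons (chr6:7554879-7565834, plus strand). Its pool-adjusted levels were 94.3, 148, 101 and 117 CPM in TRAP and 425, 424, 422 and 274 CPM in INPUT. The pool-adjusted INPUT value was lowest in VP2.11, which cannot be read as the level of that pool on its own. TRAP was 22.2% of INPUT in VP1.6, 34.8% in VP2.2, 24% in VP2.6 and 42.6% in VP2.11. The mean log2 difference was -1.75 (SE 0.23, n = 4, adjusted p = 1.1e-04), and Tac1 passed in all 8 fits that held a pool term.

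Ppp1r1b, Rasd2 and Rasgrp2 act inside the cell on cAMP and small G protein signalling. Ppp1r1b encodes DARPP-32, which inhibits protein phosphatase 1 once protein kinase A has phosphorylated it (chr11:98348404-98357796, plus strand). Its pool-adjusted TRAP levels were 98.9, 119, 126 and 111 CPM, against 300.0, 387, 245 and 236 CPM in INPUT. The fall was larger in VP1.6 and VP2.2 (log2 differences of -1.60 and -1.70) than in VP2.6 and VP2.11 (-0.96 and -1.08). The mean was -1.34 (SE 0.22, n = 4, adjusted p = 5.4e-04).

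Rasd2 encodes Rhes, a small GTP-binding protein enriched in striatum (chr8:75213944-75224113, plus strand). TRAP levels of Rasd2 were 52.7, 64.9, 41.7 and 44.3 CPM and INPUT levels were 132, 141, 152 and 116 CPM, both pool-adjusted. Its log2 differences lay between -1.86 (VP2.6) and -1.11 (VP2.2), with an SD of 0.32, and their mean was -1.42 (SE 0.22, n = 4, adjusted p = 3.2e-04).

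Rasgrp2 encodes CalDAG-GEFI, a calcium- and diacylglycerol-regulated exchange factor that activates Rap1 (chr19:6399340-6415216, plus strand). Its levels moved least of the 8 genes. They were 43.3, 45.4, 45.6 and 39.1 CPM in TRAP and 56.5, 57.2, 53.3 and 53.4 CPM in INPUT. The 4 log2 differences were all below 0 and close together, from -0.45 to -0.23, with a mean of -0.35. This did not pass in the pool-term fit (SE 0.21, n = 4, adjusted p = 0.23), where the SE draws on the spread of all genes, and passed without the pool term (adjusted p = 0.030). With the trend of fold change on exon length taken out, the mean became -0.87 (adjusted p = 0.0052 in the pool-term fit). Exon length here counts every base that is exonic in any annotated transcript, so it can exceed the length of any single mRNA. By this measure Rasgrp2, with 24 annotated transcripts, has 12384 exonic bases, against a median of 4274 over the genes tested. The value with the trend taken out depends on this measure. Over all genes, longer exons went with higher fold changes (Spearman's rho of 0.412 over genes, none of which counts as a replicate).

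**Figure D2:**
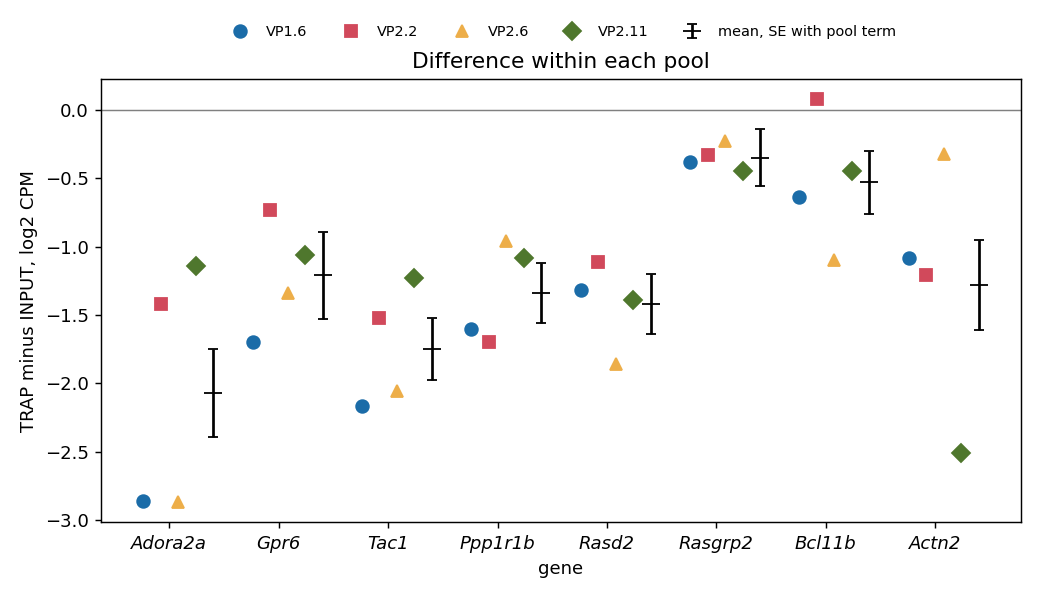
Log2 CPM in TRAP minus INPUT within each pool (vertical axis) for the 8 genes, with 1 symbol per pool and the mean with its SE from the pool-term fit in black. The Rasgrp2 symbols lie between -0.45 and -0.23, while those of Actn2 run from -2.51 to -0.32 and 1 Bcl11b symbol lies at 0.08.

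Bcl11b encodes CTIP2, a zinc finger transcription factor needed for the differentiation of medium spiny neurons and also expressed in deep-layer cortical neurons (chr12:107910403-108003602, minus strand). Its pool-adjusted levels were 105, 135, 89.5 and 108 CPM in TRAP and 164, 128, 191 and 148 CPM in INPUT. TRAP was 46.8% of INPUT in VP2.6 and 105% in VP2.2, so the pools did not share 1 direction. The mean log2 difference of -0.53 (SE 0.23, n = 4) had an adjusted p of 0.093 in the pool-term fit and of 0.023 without the pool term. With VP2.2 left out, the pool-term fit gave -0.73 (adjusted p = 0.015). With the exon length trend taken out it gave -0.89 (adjusted p = 0.0026), and Bcl11b, with 8111 exonic bases, is the second longest of the 8 genes by this measure.

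Actn2 encodes an alpha-actinin that crosslinks actin and binds NMDA receptor subunits in dendritic spines (chr13:12269426-12340760, minus strand). Its levels were 10.7, 10.6, 14.5 and 3.34 CPM in TRAP and 22.8, 24.7, 18.1 and 19.0 CPM in INPUT. TRAP was the lower fraction in all pools, but its share of INPUT ran from 17.6% in VP2.11 to 79.9% in VP2.6. The mean log2 difference was -1.28 (SE 0.33, n = 4, adjusted p = 0.0090). Without VP2.11 it was -0.87 (adjusted p = 0.044 in the pool-term fit).

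The 8 genes did not fall in 1 common proportion within a pool. Over the 28 pairs of genes, 12 kept the sign of the difference between their falls in all 4 pools. In these 12, Adora2a, Tac1, Rasd2 and Gpr6 fell more than both Rasgrp2 and Bcl11b, Ppp1r1b and Actn2 fell more than Rasgrp2, and Adora2a and Tac1 fell more than Gpr6. With the exon length trend taken out only 7 pairs kept 1 sign. Gpr6 (-0.84), Rasgrp2 (-0.87) and Bcl11b (-0.89) then had close means. Within each pair of these genes, either gene fell more in 2 of the 4 pools. For example, Tac1 differed from Bcl11b by -1.22 (SD 0.41, n = 4 pools) on the log2 scale. An exact two-sided sign-flip test over 4 pools cannot go below 0.13, and the smallest adjusted p over the 28 pairs was 0.29, so no pair could pass. For the other 16 pairs the sign changed among pools, as for Actn2 and Adora2a, whose difference of differences (Adora2a minus Actn2) ran from -2.55 to 1.37. The median difference of the 8 genes was -1.46 in VP1.6, -1.16 in VP2.2, -1.22 in VP2.6 and -1.11 in VP2.11. Slc17a6, the gene of the targeted cells, was higher in TRAP by 2.78, 3.17, 2.40 and 1.84 in the same pools, and its part in the differences among pools was not tested.

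Per kilobase of exon, the INPUT levels of the 8 genes spanned a wide range. Because the SD of these levels is taken over pool-adjusted values, it is given as a description and does not decide which neighbours in the order differ. In INPUT the order was Tac1 (114 ± 21.9 CPM per kb, SD, n = 4 pool-adjusted libraries), Ppp1r1b (99.8 ± 23.8), Rasd2 (42.5 ± 4.74), Bcl11b (19.5 ± 3.28), Adora2a (12.1 ± 2.87), Gpr6 (6.19 ± 0.990), Actn2 (5.57 ± 0.819) and Rasgrp2 (4.45 ± 0.162). In TRAP it was Ppp1r1b (38.9 ± 3.95), Tac1 (33.8 ± 6.99), Rasd2 (16.0 ± 3.29), Bcl11b (13.5 ± 2.36), Rasgrp2 (3.50 ± 0.244), Adora2a (3.05 ± 1.38), Gpr6 (2.70 ± 0.616) and Actn2 (2.58 ± 1.23). Rasgrp2, last in INPUT per kilobase, stood above Adora2a, Gpr6 and Actn2 in TRAP by mean. Its place depends on the exon length used, which counts the exons of all 24 annotated transcripts. In CPM, without division by length, Rasgrp2 was above these genes in both fractions. The INPUT means were 55.1 CPM for Rasgrp2, 37.1 for Adora2a, 11.1 for Gpr6 and 21.1 for Actn2.

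The depth behind these values could be recovered in part. In VP2.2 and VP2.6, whose columns were not rounded, TRAP minus INPUT differences were matched to ratios of whole reads. Exactly 1 pair of read counts matched for 82.1% of 8309 genes and 84.1% of 8056 genes. The genes tried were limited to a middle range of INPUT level, in which only Gpr6 and Actn2 of the 8 genes lay. From these ratios the TRAP library of VP2.2 held an effective 13.1 M reads and its INPUT library 39.6 M. For VP2.6 the sizes were 12.8 M in TRAP and 25.5 M in INPUT. In the other 2 pools at least 1 column was rounded to 3 significant digits and the depth is unknown. All 8 genes had exactly 1 matching pair of read counts in VP2.2 and in VP2.6. The number of pairs expected by chance was highest for Tac1 (0.12) and Ppp1r1b (0.088), both in VP2.2. Intervals from the read counts cover counting error only, since reads are not independent molecules and the spread among pools is left out.

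Adora2a had 255 reads in TRAP and 2063 in INPUT in VP2.2, and 93 and 1356 in VP2.6. Scaled to library size, its TRAP share of INPUT was 37.4% (exact 95% interval 32.7% to 42.6%) and 13.7% (10.9% to 16.8%). The intervals are apart, so the difference between these pools exceeded counting error. Tac1 (34.8% and 24%), Rasd2 (46.2% and 27.5%) and Bcl11b (105% and 46.8%) had likewise separate intervals and a lower share in VP2.6. For Bcl11b in VP2.2 the share rested on 2138 and 6134 reads, with an interval from 100% to 111%. Ppp1r1b (30.8% in VP2.2 and 51.3% in VP2.6) and Actn2 (43.1% and 79.9%) went the other way, also with separate intervals. Gpr6 rested on the fewest reads, 132 in VP2.2 and 53 in VP2.6 (TRAP), and its shares of 60.4% (49.6% to 72.7%) and 39.4% (28.6% to 52.7%) overlapped. The shares of Rasgrp2, 79.5% (72.7% to 86.7%) and 85.6% (78.1% to 93.6%), overlapped as well, and neither interval reached 100%.

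**Figure D3:**
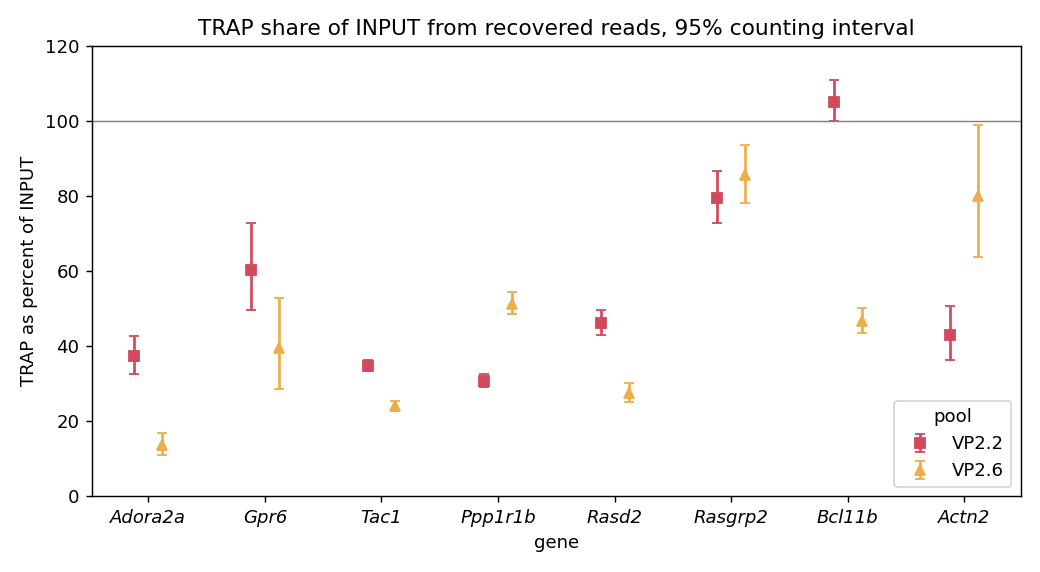
TRAP level as a percent of INPUT (vertical axis, linear, from 0) from recovered reads of the 8 genes in VP2.2 and VP2.6, with exact 95% intervals for counting error. Bcl11b in VP2.2 lies at 105% and Adora2a in VP2.6 at 13.7%.

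Other genes of striatal projection neurons were taken from a separate list of 32, of which 30 were measured and tested. In the pool-term fit 19 of them were lower in TRAP and 1 was higher, against 16.8% and 15.4% of all genes, and the list's median log2 fold change was -1.03. The lowest were Ido1 (indoleamine dioxygenase, -2.74, SE 0.33, adjusted p = 5.5e-05), Lrrc10b (-2.16, SE 0.33, adjusted p = 3.3e-04), Syndig1l (-2.01, SE 0.25, adjusted p = 7.6e-05) and Rxrg (the retinoid X receptor gamma, -1.98, SE 0.22, adjusted p = 3.3e-05). Dgkb, which encodes a diacylglycerol kinase, was the member that rose (1.26, SE 0.26, adjusted p = 0.0022). Drd3 and Gpr52 were not analysed here.

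Tac1 belongs to the direct pathway list, in which 4 of 8 genes were lower and none was higher, against 16.8% and 15.4% of all genes. The others that fell were Isl1 (a transcription factor, -1.75, adjusted p = 3.8e-04), Drd1 (the D1 dopamine receptor, -1.31, adjusted p = 0.0027) and Pdyn (prodynorphin, -1.15, adjusted p = 8.9e-04). Adora2a and Gpr6 belong to the indirect pathway list, in which 5 of 7 measured genes were lower and none was higher, beside the same 16.8% and 15.4%. Ptprm of this list had a log2 fold change above 0 (0.81, adjusted p = 0.059, and 0.032 without the pool term). The others that fell were Six3 (a transcription factor, -1.97, adjusted p = 4.2e-04), Penk (proenkephalin, -1.70, adjusted p = 4.1e-04) and Drd2 (the D2 dopamine receptor, -1.40, adjusted p = 0.0041). The median log2 fold change was -0.92 in the direct list and -1.40 in the indirect list, and the difference between them was not tested.

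Ppp1r1b was also read beside 27 other genes of the DARPP-32 and cAMP cascade (28 with it). In this list 8 genes were lower in the pool-term fit and 1 was higher (16.8% and 15.4% of all genes), and 13 were lower without the pool term (24.8% of all genes). Gng7, the G protein gamma subunit that pairs with Golf in striatum, fell most (-3.15, SE 0.21, adjusted p = 2.2e-07). Arpp21 (-1.67, adjusted p = 2.7e-04) and Ptpn5 (the striatal-enriched phosphatase STEP, -1.44, adjusted p = 2.5e-04) followed, and these 2 are also on the striatal list. Creb1, the cAMP-responsive transcription factor, was higher in TRAP (0.77, SE 0.22, adjusted p = 0.016), but with the exon length trend taken out it was 0.21 and did not pass (adjusted p = 0.44 in the pool-term fit). The median of the list was -0.35. The catalytic subunits of protein kinase A did not pass, Prkaca at -0.35 (adjusted p = 0.22, and 0.036 without the pool term) and Prkacb at 0.17 (adjusted p = 0.63).

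**Figure D4:**
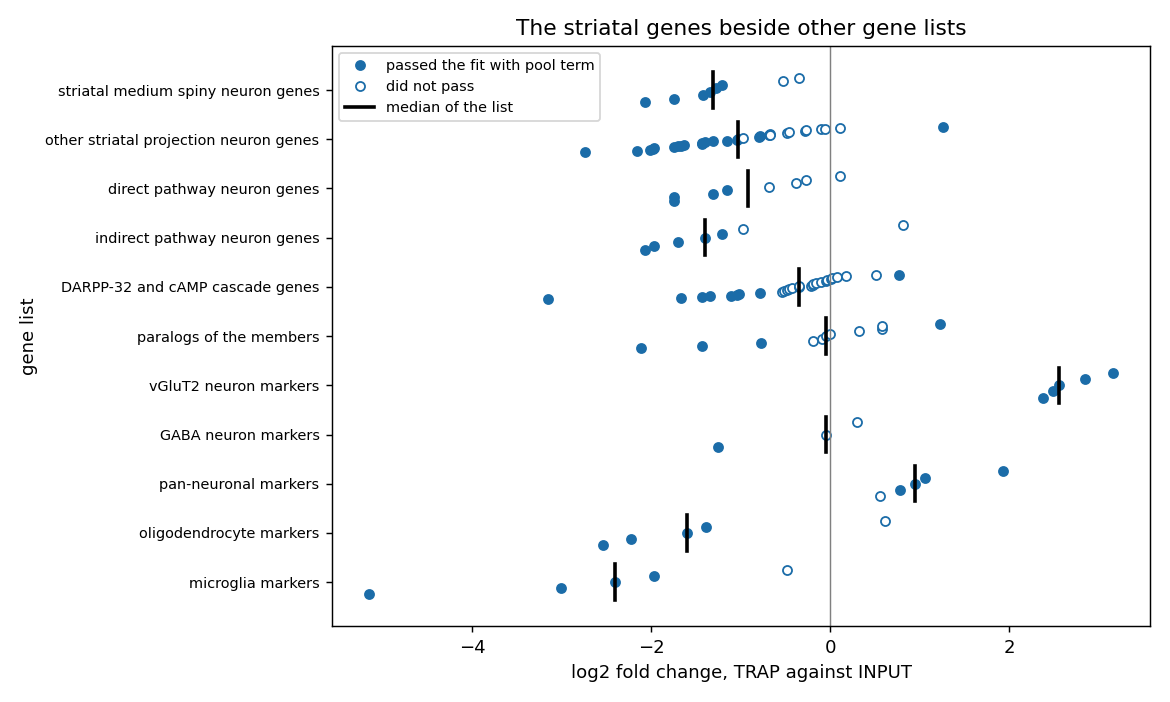
Log2 fold change in TRAP against INPUT (horizontal axis) of each gene in 11 lists, filled where the pool-term fit passed at an adjusted p under 0.05 and open where it did not, with a bar at the list's median. The striatal medium spiny neuron genes have their median at -1.31 and the vGluT2 neuron markers at 2.55.

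Close relatives of the 8 genes showed no common direction. Of 17 listed paralogs, 11 were measured, with a median of -0.05. In the pool-term fit 3 were lower and 1 was higher, against 16.8% and 15.4% of all genes. Tac2, the neurokinin B precursor, fell (-2.12, SE 0.24, adjusted p = 3.4e-05), as did Rasgrp3 (-1.44, SE 0.40, adjusted p = 0.013) and Ppp1r1a (phosphatase inhibitor 1, -0.77, SE 0.25, adjusted p = 0.026). With the exon length trend taken out, Ppp1r1a was -0.28 (adjusted p = 0.32) and no longer passed, while Bcl11a was -0.75 and passed (adjusted p = 0.011). Rasd1, the relative of Rasd2, rose (1.22, SE 0.27, adjusted p = 0.0039). The other 7 did not pass in the pool-term fit. Among them were the relatives of the receptors, Adora1 (0.00, adjusted p = 0.99), Gpr3 (-0.05, adjusted p = 0.95) and Gpr12 (-0.09, adjusted p = 0.85). Bcl11a (-0.20, adjusted p = 0.48), Rasgrp1 (0.32, adjusted p = 0.31), Actn1 (0.58, adjusted p = 0.10, and 0.045 without the pool term) and Actn4 (0.58, adjusted p = 0.079, and 0.019 without it) made up the rest.

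Of 12 measured partners of the 8 proteins, 4 were lower and 3 were higher in the pool-term fit, against 16.8% and 15.4% of all genes. Rap1a and Rap1b, the small G proteins on which Rasgrp2 acts, were lower (-1.10, adjusted p = 0.0050, and -0.75, adjusted p = 0.041, the latter 0.070 with the exon length trend taken out), and so was Entpd1, an ectoenzyme upstream of extracellular adenosine (-1.72, adjusted p = 0.019). Grin1 and Grin2b, NMDA receptor subunits to which Actn2 binds, were higher (1.69, adjusted p = 0.0020, and 1.51, adjusted p = 0.0013). With the exon length trend taken out, Grin2b was 0.76 (adjusted p = 0.012 in the pool-term fit, and 0.067 without the pool term). Gng7 was the fourth gene that fell, and Rap1gap the third that rose (1.22, adjusted p = 0.0072). The tachykinin receptors Tacr1 (0.19, adjusted p = 0.69) and Tacr3 (-0.22, adjusted p = 0.67) did not pass.

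Markers of the targeted cells and of other cell types were read beside the 8 genes, and their part in the result was not tested. The counts below are from the pool-term fit, in which 16.8% of all genes tested were lower and 15.4% were higher. All 5 genes listed as vGluT2 neuron markers were higher in TRAP, Slc17a6 by 2.55 (SE 0.24, adjusted p = 7.3e-06). Tbr1 (3.16, adjusted p = 1.0e-06) and Neurod1 (2.84, adjusted p = 1.0e-05) rose most. The paper calls Neurod1 a marker of all neurons, so not every gene of this list is particular to the targeted cells. Their summed level was 255 to 392 CPM in TRAP and 35.9 to 77.7 CPM in INPUT. The summed level of the 8 striatal genes was 416 to 544 CPM in TRAP and 881 to 1210 CPM in INPUT, so their mRNA remained well above 0 in every TRAP library. Of 3 GABA neuron markers, Slc32a1 fell (-1.26, adjusted p = 0.0055), and Gad1 (0.30, adjusted p = 0.47) and Gad2 (-0.05, adjusted p = 0.92) did not pass (summed level 918 to 1570 CPM in TRAP, 584 to 1390 CPM in INPUT). Of 7 pallidal and subpallial neuron genes, 4 were lower, and the list's median log2 fold change was -1.38, beside -1.31 for the 8 striatal genes. Their summed levels were 86.7 to 122 CPM in TRAP and 216 to 286 CPM in INPUT. Pvalb (131 CPM) and Lhx6 (68.7 CPM) had the highest mean INPUT levels among them. These transcripts were thus present in both fractions, and the tissue they came from was not tested. Of 5 oligodendrocyte markers 4 were lower and Mag was not (0.61, adjusted p = 0.072, and 0.035 without the pool term), with summed levels of 900 to 1630 CPM in TRAP and 3510 to 3810 CPM in INPUT. Of 5 microglia markers 4 were lower (22.7 to 31.5 CPM against 79.8 to 126 CPM). Of 5 astrocyte markers 3 were lower (Gja1, Gfap and Aqp4, at 22.6%, 31.8% and 46.8% of INPUT). Aldh1l1 (-0.27, adjusted p = 0.41) and Aldoc (-0.09, adjusted p = 0.81) did not pass. The summed astrocyte levels (1180 to 1630 CPM in TRAP, 1380 to 1840 CPM in INPUT) were mostly those of Aldoc (mean 1290 and 1380 CPM). Of the 6 interneuron and cholinergic markers 3 were lower and 1 higher (301 to 387 CPM in TRAP, 373 to 613 CPM in INPUT), and of 3 measured endothelial markers 1 was higher. All 5 pan-neuronal markers had a log2 fold change above 0, and 4 passed.

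The genes whose pattern was most like the mean of the 8 were sought among 13564 genes over 1 CPM in all 4 INPUT libraries, by Pearson's r over the 8 libraries. The 10 most alike were Mpped2, Etfrf1, Bod1, Nsmce4a, Tprgl, Bag1, Rab31, Rnd2, Selenop and Glul, with r from 0.995 to 0.998. None of them is on the striatal lists, and Glul, glutamine synthetase, is best known from astrocytes. Their TRAP levels were 12.9% (Selenop) to 80.7% (Nsmce4a) of INPUT. Among the 8 genes themselves, r with their own mean was highest for Tac1 (0.989) and lowest for Actn2 (0.781). An r of 0.95 or more was reached by 574 of the genes searched. These points share their pools and the pool adjustment, so that r mostly reflects the contrast between fractions, and it is given as a description.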

How the data were processed

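TRAP and INPUT RNA of 4 pools was sequenced, 1 library each (8 libraries). The authors aligned reads with STAR 2.5.1a to an Ensembl mouse genome (GRCm38), counted them with featureCounts, scaled them by TMM in edgeR and deposited log2 CPM per gene. The deposited table also holds the authors' own comparison (log2 fold changes with limits, p-values, and the score columns t, B and linear fold change), which was not used. Of 14398 rows, 45 repeated a gene with identical values and were left out. The values of 3 libraries were rounded to 3 significant digits.

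The 14249 genes with more than 1 CPM in 3 or more libraries entered limma 3.58.1 (lmFit, eBayes with trend, R 4.3.3), with Benjamini-Hochberg adjustment and a threshold of 0.05. The design first planned held the fraction alone. It was set aside as the basis of calls once the values showed that a pool term had been subtracted, since libraries of a pool are then not independent, and calls in the text come from the fit with the pool as a term. Values of the other fit are given where its call differs for a gene named. The pools pair the libraries by the labels, each pool giving both fractions. Same-pool deviations correlated at -0.745 to -0.495 and those of different pools at 0.0457 to 0.441. Permutation tests over libraries and counts of non-overlapping groups were left out for the same reason. Whole reads were recovered for 2 pools only, so no count test was run.

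Exon lengths and positions came from GENCODE M21 (GRCm38) and promoter windows from RefSeq. The members and lists were chosen with earlier results of these data known. The text names all 8 genes, every tested paralog and the 10 genes most like the mean of the 8. In each other list, up to 4 genes lowest and 2 highest among those passing both fits could be named. Of the cell type marker lists only some of these genes are named. Slc17a6, Rap1gap, Prkaca, Prkacb, Tacr1, Tacr3, Gad1, Gad2, Mag, Aldh1l1, Aldoc and Ptprm were added after their values were seen. A listed gene is not reported here. Scripts were tested on simulated data.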

Additional observations from a re-analysis of the deposited data

Results flagged for a closer look

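Among 24 groups of 4 values examined (the TRAP levels, the INPUT levels and the within-pool differences of the 8 genes), 2 held a value far from the other 3 by Dixon's criterion, which chance gives in about 1 of 20 groups. The INPUT level of Tac1 was 8.10 log2 CPM in VP2.11 and 8.72 to 8.73 in the other pools. The TRAP level of Gpr6 was 2.69 log2 CPM in VP2.2 and 2.05 to 2.14 in the other pools. Both are pool-adjusted levels and cannot be read as the level of 1 pool on its own, and no within-pool difference met the criterion.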

How the results depend on the processing

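Adora2a, Tac1, Rasd2 and Ppp1r1b stayed lower in TRAP and past the threshold in all 19 alternatives, 8 of which held the pool as a replicate block. Actn2 passed in 17 of the 19. Without the block, it did not pass with VP1.6 left out or with VP2.2 left out. Actn2 passed in all 8 block fits. Gpr6 passed in 6 of the 8, Bcl11b in 3 and Rasgrp2 in 1, and all 8 genes kept a log2 fold change below 0 throughout. The block fits with 3 pools, with the length trend and with median centring were chosen after seeing the data.

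With the replicate block alone, 6 of the 8 genes and 8 DARPP-32 and cAMP cascade genes were lower, and 4592 genes in all were called against 6830 without it. With a fold change threshold of 1 on the log2 scale, 3528 genes and 7 cascade genes were called. Median centring with the block gave 4495 genes and 8 cascade genes. The block without VP1.6 called 3232 genes, 5 of the 8 striatal genes, 53 listed genes and 7 cascade genes, without VP2.6 it called 3250, 5 and 7 (genes, striatal, cascade), without VP2.2 4156 genes, and without VP2.11 4102 genes and 8 cascade genes. With the length trend taken out and the block, Creb1, Ppp1r1a and Rap1b no longer passed. Leaving out 1 pool without the block, 5 to 7 of the 8 genes and 8 to 15 cascade genes were called. So were 17 to 23 other striatal genes, 57 to 80 listed genes and 4862 to 6894 genes in all. With 1 pool left out, 13 to 17 pairs of the 8 genes kept 1 sign. This count cannot fall below 12, since a pair with 1 sign in all pools keeps it when any pool is dropped. It therefore does not test how the 12 pairs depend on a single pool. With the length trend taken out and all pools kept, 7 pairs kept 1 sign, against 12. The cause was not tested, apart from the smaller number of pools.

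Of the genes run, which leave out Mag, Aldh1l1, Aldoc and Ptprm, signs turned for 7 that did not pass. Adora1 was 0.00 with array weights and the block and without VP2.11, 0.01 without VP2.2, 0.02 without VP2.6 and 0.03 with median centring. Gpr3 was 0.08 with the length trend taken out and 0.17 without VP2.6. Gpr12 was 0.09 under both and 0.05 without VP1.6. Prkacb was -0.04 with array weights, and -0.22 with the length trend taken out, where Tacr1 was -0.07 and Gad1 -0.03. Leaving out 1 pool, Adora1 ran from -0.04 to 0.02, Gpr3 from -0.16 to 0.17, Gpr12 from -0.35 to 0.09, Prkacb from -0.10 to 0.30, Tacr1 from -0.12 to 0.44, Gad1 from -0.15 to 0.50 and Gad2 from -0.49 to 0.23.

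The number of pools (4) limits the precision, and depth is known in 2 pools only.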
